A study of Homo sapiens with 18 samples.

Results

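The response of 2 cell lines to the same dose of the same compound was compared gene by gene. The comparison used 12 of the 18 libraries of the series, in 4 groups of 3: XG1 in DMSO, XG1 in 100 nM YKL-5-124, AMO1 in DMSO and AMO1 in 100 nM YKL-5-124, each kept for 24 h. DMSO is the solvent, and YKL-5-124 is an inhibitor of the kinase CDK7. The other 6 libraries, treated with 1000 nM, entered the fit only to estimate the spread. XG1 and AMO1 are established human cell lines that the labels give as multiple myeloma, a cancer of plasma cells, and the title of the series calls the lines resistant. Neither the labels nor the title say to what they are resistant. The members were chosen by label: the response of XG1 (100 nM minus DMSO) minus the response of AMO1, on log2(FPKM + 1), for each gene. This value is called the line difference. A positive line difference means that a gene fell less, or rose more, in XG1.

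CDK7 works with cyclin H (CCNH) and MNAT1 as the kinase of the general transcription factor TFIIH. It marks the tail of RNA polymerase II as the polymerase leaves a promoter, and the same trio activates the cyclin-dependent kinases that drive cells through S phase and mitosis. Genes that E2F factors control, among them those of DNA replication, are therefore a usual readout of CDK7 inhibitors. The integrated stress response is a separate program, in which the factor ATF4 turns on amino acid synthesis, transport and tRNA charging.

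Of 26249 genes in each library, 12792 reached 1 FPKM in at least 3 of the 18 libraries and were tested. FPKM is a read count scaled by gene length and library size, here apparently rescaled to spike-in RNA. Read depth is unknown, so no counting error can be given, and the precision comes from the 3 replicates alone. The sum over all genes in each group is given below and, after such scaling, is not a measure of read depth. The log2(FPKM + 1) scale understates changes of genes near 1 FPKM. Levels are compared between libraries for 1 gene, not between genes, because 3' libraries do not scale with gene length. Summed levels are the exception, since each gene counts in them by its FPKM.

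Genes that define plasma cells were far lower in the libraries labelled XG1 than in those labelled AMO1. Of 20 plasma cell genes, 11 reached a mean of 1 FPKM in XG1 in DMSO and 19 did in AMO1, and their summed level was 349.8 to 428 FPKM in XG1 libraries and 11649 to 12974 FPKM in AMO1 libraries. IRF4, the transcription factor that myeloma cells depend on, stood at 0.533 FPKM in XG1 and 77.5 in AMO1. The plasma cell proteoglycan SDC1 stood at 24.2 and 5067 FPKM. Most erythroid genes went the other way: 26 of 29 reached 1 FPKM in XG1 and 5 of 29 did in AMO1. Their summed levels were 5641 to 6159.6 and 426 to 498 FPKM. GYPC (164 FPKM in XG1 and 331 in AMO1) and HBE1 (67.2 and 106) were higher in AMO1 in DMSO. HBE1 was named after its values were seen. Throughout, XG1 means the libraries labelled XG1, and a difference between the lines is a difference between these libraries. Within XG1 at 100 nM, replicates 2 and 3 lay farther from their fellow replicates (median absolute log2 distance 0.30 and 0.35) than the other 10 libraries did (0.14 to 0.25). The labels number the replicates without saying whether they came from different cultures, so every p-value here measures the spread between these samples, which may be technical.

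The summed level fell less in XG1 than in AMO1. XG1 libraries summed to 1315368 ± 103067 FPKM in DMSO and to 1066006 ± 76543 at 100 nM, 81.0% of DMSO (mean ± SD, n = 3). AMO1 libraries summed to 1515077 ± 62531 and 941623 ± 36244 FPKM, 62.2%. The 3 treated XG1 libraries stood at 87.2%, 80.4% and 75.6% of their DMSO mean and the 3 treated AMO1 libraries at 60.9%, 64.9% and 60.7%, so the lines did not overlap. The log2 difference between the lines was 0.38, with an exact two-sided permutation p = 0.1 over 20 arrangements, the smallest that 3 against 3 allows. The difference was 0.28 without the 50 most abundant genes of each library. In the plot of summed level and median gene, XG1 replicate 3 at 100 nM had a median gene at −0.34 relative to its DMSO mean on the log2 scale, while replicates 1 and 2 were at −0.05 and −0.01. In bulk RNA, fewer cells of a kind and less RNA per cell cannot be told apart.

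**Figure D1:**
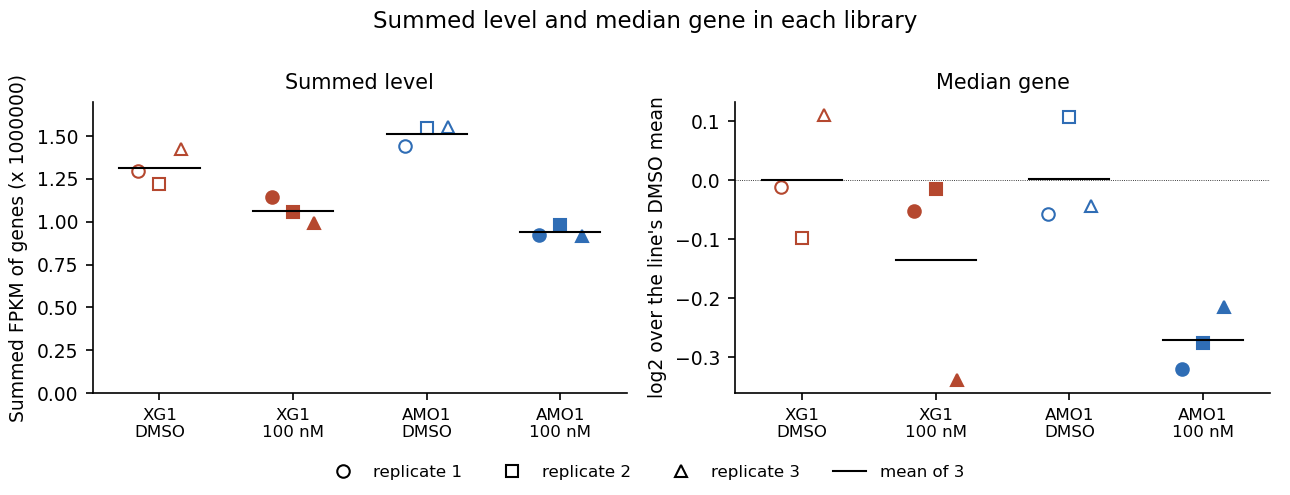
Left, summed FPKM of all genes in each of the 12 libraries (axis from 0); right, the median gene of each library as log2 over the mean of its line's DMSO libraries. Open symbols are DMSO, filled symbols 100 nM, and bars are means of 3: the treated AMO1 libraries lie below their DMSO libraries in both panels, and XG1 replicate 3 at 100 nM is the lowest of the XG1 libraries in both.

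Across all genes, 687 genes were higher in XG1 by the line difference (5.37% of those tested) and 110 were lower (0.860%), 6.23% in either direction, at adjusted p under 0.05 (limma, Benjamini-Hochberg over 12792 genes). Because the median gene itself had a line difference of 0.17, changes are also given after scaling to the median gene, which puts that median at −0.01. On that relative scale 803 genes were higher (6.28%) and 410 lower (3.21%), 9.48% in all. With the summed FPKM set equal in every library the split was 482 and 530. Calls made on both the deposited and the relative scale numbered 609 higher and 100 lower. Within each line, 1386 genes fell (10.8%) and 409 rose (3.20%) in XG1, against 3254 that fell (25.4%) and 266 that rose (2.08%) in AMO1.

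Most of the genes that were higher in XG1 were genes that fell in AMO1. Of the 687, 511 passed the test as a fall in AMO1 with no call in XG1, and 57 fell in both lines. A further 81 rose in XG1 with no call in AMO1, 20 rose in XG1 and fell in AMO1, 6 rose in both, and 12 were called in neither line alone. Of the 110 that were lower, 76 fell in XG1 with no call in AMO1 and 28 rose in AMO1 with no call in XG1. The relative scale turned that order: of 410 lower genes, 151 fell in XG1 only and 201 rose in AMO1 only. Of the 803 higher genes on that scale, 436 fell in AMO1 only and 197 rose in XG1 only. On the deposited scale most of the higher genes were expressed in both lines and most of the lower ones were not. Of the 687 higher genes, 601 (87.5%) averaged at least 1 FPKM in both lines, against 9385 of all 12792 genes tested. Of the 110 lower genes 32 did (29.1%), with 56 measured at that level in XG1 only and 18 in AMO1 only. On the relative scale 708 of 803 higher and 266 of 410 lower genes averaged that much in both lines.

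**Figure D2:**
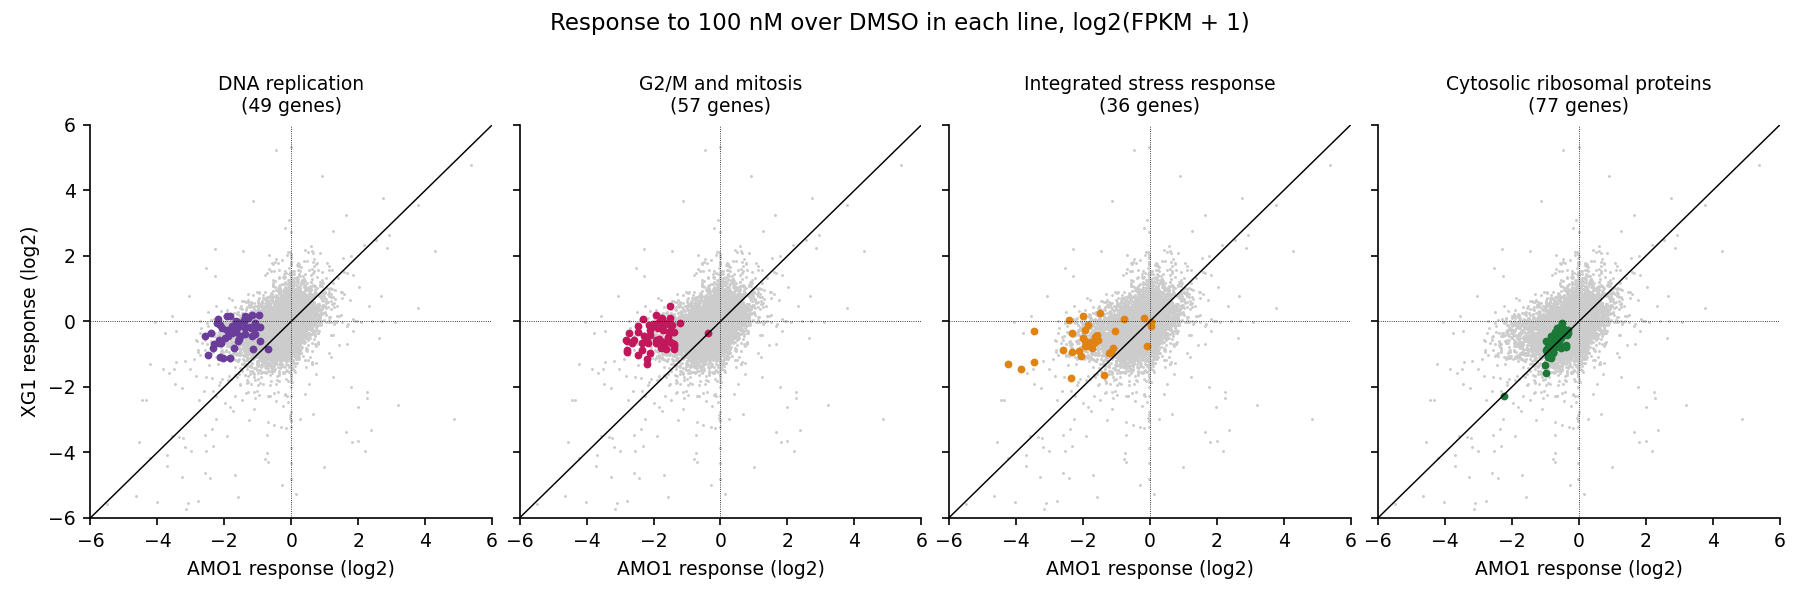
Response of each tested gene to 100 nM over DMSO (log2(FPKM + 1), mean of 3 against mean of 3) in AMO1 on the x axis and in XG1 on the y axis; grey points are all 12792 genes, coloured points the members of the list named above each panel, and the solid line marks equal responses. Replication, mitosis and stress response genes lie left of the line, falling further in AMO1, and cytosolic ribosomal protein genes lie near it.

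Promoters of genes from the 3 groups with the most calls are shown because the members of each moved together. Each run is the 250 bases before the start given by RefSeq (GRCh38.p14), 5′ to 3′ on the strand of the gene, and capitals mark the letters matched on either strand.
CHAC1 (chr15:40953221-40953470, plus strand; ATF4-type amino acid response element, TGATGNAA): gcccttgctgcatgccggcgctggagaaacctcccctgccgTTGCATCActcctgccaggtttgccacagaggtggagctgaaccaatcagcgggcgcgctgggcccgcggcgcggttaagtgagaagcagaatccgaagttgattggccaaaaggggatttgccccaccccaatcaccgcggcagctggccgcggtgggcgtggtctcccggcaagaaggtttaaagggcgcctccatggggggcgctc
CDT1 (chr16:88803539-88803788, plus strand; E2F site, TTTCCCGC or TTTGGCGC): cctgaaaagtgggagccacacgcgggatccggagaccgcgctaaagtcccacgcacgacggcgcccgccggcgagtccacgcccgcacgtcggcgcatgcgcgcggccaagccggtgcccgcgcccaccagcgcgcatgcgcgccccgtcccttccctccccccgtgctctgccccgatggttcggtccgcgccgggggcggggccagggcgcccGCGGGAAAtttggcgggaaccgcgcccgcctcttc
CKS1B (chr1:154974431-154974680, plus strand; cell cycle homology region, TTTGAA or TTCGAA): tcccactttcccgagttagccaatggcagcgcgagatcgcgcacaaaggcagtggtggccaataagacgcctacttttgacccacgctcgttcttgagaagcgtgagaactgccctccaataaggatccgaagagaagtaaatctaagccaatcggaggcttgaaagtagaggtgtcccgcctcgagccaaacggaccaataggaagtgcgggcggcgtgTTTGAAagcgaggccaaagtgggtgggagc
The first matched base lay 209 bases before the start in CHAC1, 35 in CDT1 and 30 in CKS1B. The amino acid response element was in 7 of 31 stress response genes with a promoter in the table (22.6%) and in 3.89% of all 27305 genes there. E2F letters were in 14 of 42 replication genes (33.3%) against 2.36% of all genes, and the cell cycle letters in 27 of 48 mitosis genes (56.3%) against 17.2%. The windows of RRM2, CDC6, NUSAP1 and CTH held no match to the letters searched for their group. A match describes letters and is not evidence of binding.

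Transcription machinery came first in the order of roles. CDK7 stood at 19.1, 25.5 and 39.3 FPKM in XG1 in DMSO and 22.8, 10.1 and 10.7 at 100 nM, and in AMO1 at 15.4, 16.2 and 19.0 and then 11.6, 12.2 and 9.49. Replicate 1 of treated XG1 lay among its DMSO libraries, while the AMO1 groups did not overlap. The line difference was −0.36 (95% interval −1.15 to 0.42), adjusted p = 0.64 in limma's fit. Cyclin H (CCNH) and the assembly factor MNAT1 were likewise not called, at −0.21 (−1.01 to 0.59) and −0.40 (−1.39 to 0.59). CDK7 overlaps CCDC125 and CCNH overlaps RASA1, and reads of overlapping genes may not be told apart.

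Of 9 genes of the CDK7 complex and TFIIH, 1 was called, against 6.23% of all genes: GTF2H5, the smallest subunit of TFIIH. It stood at 15.8, 16.6 and 17.9 FPKM in XG1 in DMSO and 12.5, 9.73 and 6.93 at 100 nM, and at 4.94, 5.03 and 4.41 and then 5.83, 5.89 and 6.09 in AMO1. GTF2H5 fell in XG1, and in AMO1 all 3 treated libraries were above the DMSO libraries without passing the test on the deposited scale. The line difference was −1.02 (SE 0.25, adjusted p = 0.022 by limma). That call was lost without AMO1 DMSO replicate 3 or AMO1 100 nM replicate 2, with a highest adjusted p of 0.057. On the relative scale the rise in AMO1 passed (0.65, adjusted p = 0.00038 by limma), and the line difference was −1.21 (0.00014).

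POLR2A, the catalytic subunit of RNA polymerase II, rose in both lines. Its libraries were at 52.2, 40.0 and 49.3 FPKM in XG1 in DMSO and 132, 144 and 126 at 100 nM, and at 51.4, 62.5 and 50.2 and then 111, 100.4 and 102 in AMO1. Treated and DMSO libraries did not overlap in either line. The rise was 1.495 in XG1 and 0.93 in AMO1 on the log2 scale, and the line difference was 0.57 (95% interval 0.06 to 1.07, adjusted p = 0.19 by limma), which was not called. Of 12 polymerase II subunits 2 were called, both higher in XG1, against 5.37% of all genes: POLR2G (0.79, SE 0.20) and POLR2I (0.85, SE 0.22). Both fell in AMO1, with no call in XG1. On the relative scale POLR2G stayed called (0.55) with a rise in XG1 (adjusted p = 0.020 by limma), POLR2I was not called (0.61, adjusted p = 0.061), and neither fall in AMO1 passed the test (0.071 and 0.24). The POLR2G call held only without XG1 DMSO replicate 3, XG1 100 nM replicate 3 or AMO1 DMSO replicate 1 and was lost without any other library. The POLR2I call was lost without any of XG1 DMSO replicates 1 and 2, XG1 100 nM replicate 1, the 3 AMO1 DMSO libraries, and AMO1 100 nM replicates 1 and 2. Highest adjusted p on leaving out 1 library was 0.081 for POLR2G and 0.096 for POLR2I, and POLR2I overlaps OVOL3.

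DNA replication genes fell throughout AMO1 and less in XG1. Of 49 replication genes, 37 were called, each higher in XG1, against 5.37% of all genes. The median line difference was 1.42, against 0.17 over all genes, and 1.24 on the relative scale. All 49 fell in AMO1 (median −1.64), and 9 fell in XG1 (median −0.31), against 25.4% and 10.8% of all genes. The range over the 49 was −0.14 to 2.25.

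RRM2, a subunit of the reductase that makes deoxynucleotides, was at 49.5, 46.6 and 47.6 FPKM in XG1 in DMSO and 49.6, 51.9 and 38.3 at 100 nM. In AMO1 it was at 186, 205 and 199 and then 37.6, 39.3 and 46.8. RRM2 thus overlapped between treated and DMSO libraries in XG1 and fell to about the XG1 level in AMO1, with a line difference of 2.18 (SE 0.21, adjusted p = 1.7e-05 by limma). CDT1, which loads the replicative helicase onto origins and whose promoter is printed above, fell in both lines. It went from 132, 106 and 121 FPKM to 87.9, 84.1 and 87.2 in XG1 and from 90.3, 99.3 and 102 to 16.2, 13.3 and 17.4 in AMO1. The groups of CDT1 did not overlap in either line, and the line difference was 2.11 (SE 0.20, adjusted p = 1.7e-05 by limma). CDC6, its partner at origins, showed 2.03 (SE 0.23), with a mean of 30.3 ± 3.05 FPKM in XG1 in DMSO and 28.03 ± 2.55 at 100 nM, and 37.9 ± 1.30 and 8.01 ± 2.06 in AMO1 (SD, n = 3).

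Mitosis genes showed the same form. Of 57 G2/M and mitosis genes, 43 were called, each higher in XG1, against 5.37% of all genes. The median line difference was 1.51, and 1.34 on the relative scale. In AMO1 56 of the 57 fell (median −1.88), and in XG1 18 fell (median −0.42), against 25.4% and 10.8% of all genes. All 57 line differences were positive on the deposited scale, from 0.03 to 2.38. TPX2, which targets Aurora A kinase to the spindle, was at 87.7, 81.0 and 83.7 FPKM in XG1 in DMSO and 88.1, 100.03 and 76.6 at 100 nM. In AMO1 it went from 52.5, 57.9 and 55.4 to 9.58, 10.8 and 10.9. The XG1 groups of TPX2 overlapped and the AMO1 groups lay far apart, and the line difference was 2.36 (SE 0.21, adjusted p = 8.5e-06 by limma).

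NUSAP1, a spindle microtubule binder, showed 2.01 (SE 0.18), falling from 39.0 ± 4.20 to 8.12 ± 0.58 FPKM in AMO1 and measuring 78.7 ± 3.26 and 72.5 ± 5.76 in XG1. CKS1B, the small partner of cyclin-dependent kinases whose promoter is printed above, fell in both lines: from 1312 to 898 FPKM in XG1 and from 1776 to 249 in AMO1 (means of 3), a line difference of 2.28 (SE 0.23). Genes outside the lists with large line differences included 3 that act on chromosomes. SKA1, which ties kinetochores to microtubules, showed 2.77, HJURP, the chaperone of the centromere histone, 2.48, and the histone chaperone ASF1B 2.58. ASF1B rose in XG1, from 69.1 ± 7.47 to 114 ± 16.1 FPKM, and fell in AMO1, from 67.4 ± 5.30 to 17.8 ± 2.13.

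Among 24 regulators of G1 and E2F, 6 were called, each higher in XG1, against 5.37% of all genes. In AMO1 16 fell and in XG1 3 fell, against 25.4% and 10.8% of all genes. CCND3, cyclin D3, moved in opposite directions: 121, 115 and 137 FPKM became 183, 199.9 and 163 in XG1, and 51.3, 53.9 and 50.5 became 28.01, 25.2 and 26.2 in AMO1. No library of 1 group overlapped with the other in either line, and the line difference was 1.49 (SE 0.18, adjusted p = 9.7e-05 by limma). CDK2, the S phase kinase that CDK7 activates, showed 1.90 (SE 0.24). It went from 132 ± 3.83 to 43.0 ± 0.58 FPKM in AMO1 and from 179 ± 5.03 to 221 ± 21.5 in XG1. The rise in XG1 was not called on the deposited scale and passed on the relative scale (0.50, adjusted p = 0.0062 by limma). E2F1 showed 1.53 (SE 0.32, adjusted p = 0.0086 by limma), from 38.1 ± 5.20 to 8.30 ± 2.50 FPKM in AMO1 and from 11.2 ± 1.36 to 7.22 ± 0.80 in XG1. CCND1, cyclin D1, lay under 1 FPKM in XG1 on average in both groups, and its line difference of 0.47 (95% interval −0.11 to 1.04) was not called.

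Of 30 homologous recombination and Fanconi genes, 12 were called, each higher in XG1, against 5.37% of all genes, with a median line difference of 0.64. In AMO1 24 fell and in XG1 8, against 25.4% and 10.8% of all genes. RAD51C, a mediator of homologous recombination, had a line difference of 1.67 (SE 0.25). The count of 12 was 7 without AMO1 DMSO replicate 2.

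**Figure D3:**
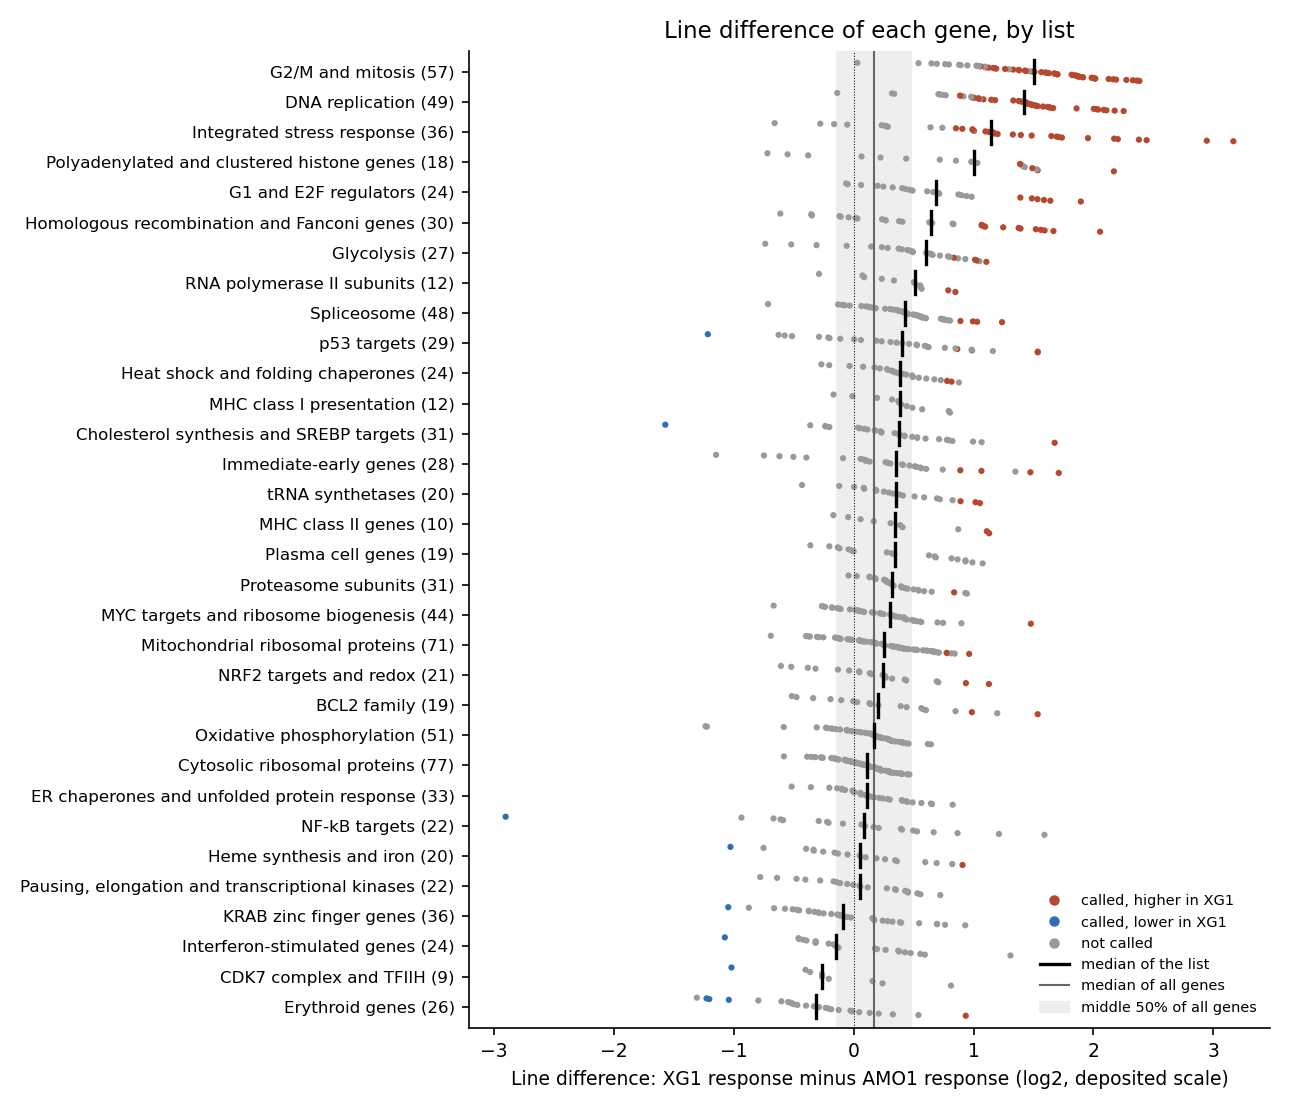
Line difference (XG1 response minus AMO1 response, log2, deposited scale) of every tested member of each list with at least 9 tested members; the number tested is in brackets. Black bars are list medians, the grey line and band are the median and middle 50% of all 12792 genes, red and blue points passed the test: the G2/M, replication and stress response lists have medians of 1.51, 1.42 and 1.15, and all genes have 0.17.

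Many genes of the integrated stress response fell in both lines, and most fell further in AMO1. Of 36 tested members (39 listed), 25 were called, each higher in XG1, against 5.37% of all genes. The median line difference was 1.15, and 0.93 on the relative scale. In AMO1 32 fell (median −1.79) and in XG1 19 fell (median −0.62), against 25.4% and 10.8% of all genes. CTH, the cystathionine gamma-lyase that makes cysteine, had the smallest adjusted p of the list. It was at 17.7, 14.4 and 18.2 FPKM in XG1 in DMSO and 13.7, 14.3 and 12.7 at 100 nM, and went from 35.7, 42.9 and 41.4 to 1.98, 3.26 and 3.12 in AMO1. XG1 had a fall of 0.28 that was not called, AMO1 one of 3.45, and the line difference of CTH was 3.17 (SE 0.22, adjusted p = 8.3e-07 by limma).

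CHAC1, which breaks down glutathione and whose promoter is printed above, fell in both lines to like levels. It was at 6.61, 10.0 and 11.6 FPKM in XG1 in DMSO and 3.45, 4.14 and 2.18 at 100 nM, and at 57.9, 72.0 and 56.7 and then 2.59, 1.82 and 2.67 in AMO1. The treated libraries of the 2 lines overlapped, while their DMSO libraries did not, so the line difference of 2.95 (SE 0.30) came with a higher starting level in AMO1. INHBE, a secreted chain of the activin family, fell in both lines with a line difference of 2.38 (SE 0.25), from 9.61 to 2.87 FPKM in XG1 and from 28.9 to 1.09 in AMO1 (means of 3), and its treated AMO1 libraries lay below the treated XG1 libraries. SLC7A11, the cystine importer, fell in both lines with a line difference of 1.13 (SE 0.22). SLC1A5, the glutamine transporter, was at 73.9, 77.8 and 98.5 against 96.6, 88.6 and 72.2 FPKM in XG1 and fell from 233, 253 and 229 to 45.6, 38.4 and 49.3 in AMO1, a line difference of 2.44 (SE 0.28).

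**Figure D4:**
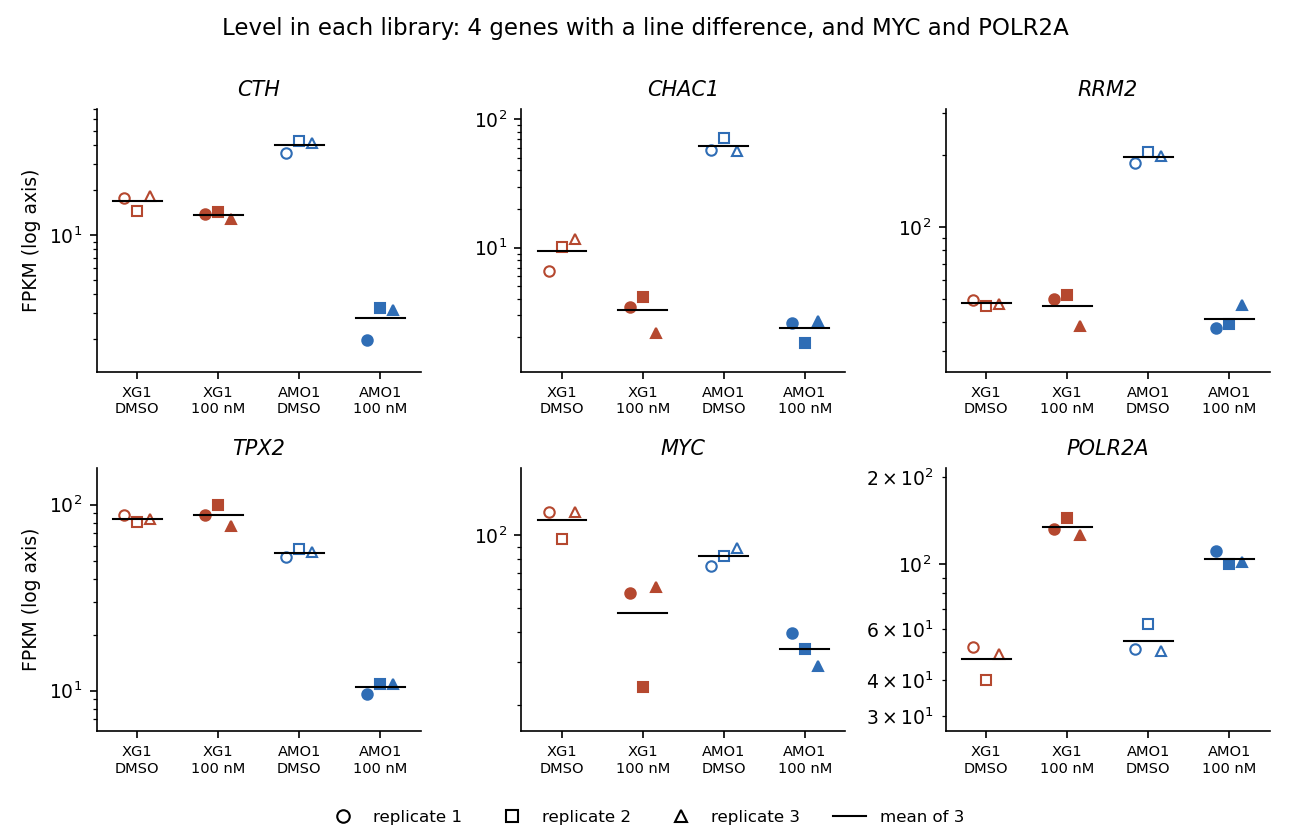
FPKM (log axis) of CTH, CHAC1, RRM2, TPX2, MYC and POLR2A in each library; open symbols are DMSO, filled symbols 100 nM, symbol shape is the replicate and bars are means of 3. RRM2 and TPX2 overlap between DMSO and 100 nM in XG1 and are apart in AMO1, and CHAC1 ends at overlapping levels in the 2 lines. MYC fell and POLR2A rose in both on the deposited scale. The AMO1 fall of MYC did not pass on the relative scale.

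tRNA synthetases, which charge tRNAs with amino acids, fell in 13 of 20 cases in XG1 and 17 of 20 in AMO1, against 10.8% and 25.4% of all genes. On the relative scale 13 of 20 fell in each line, against 1239 of all 12792 genes in XG1 and 1605 in AMO1. For the line difference 3 were called, each higher in XG1, against 5.37%. These were AARS (1.02), CARS (0.89) and GARS (1.05). AARS went from 79.5 ± 6.13 to 45.9 ± 4.51 FPKM in XG1 and from 46.4 ± 2.49 to 12.7 ± 1.66 in AMO1. The AARS call was lost without XG1 DMSO replicate 2, XG1 100 nM replicate 2, AMO1 DMSO replicate 2 or 3, or AMO1 100 nM replicate 1. The CARS call held only without XG1 100 nM replicate 2 or 3, AMO1 DMSO replicate 3 or AMO1 100 nM replicate 3, and was lost on leaving out any other library. The GARS call held only without XG1 100 nM replicate 3. Highest adjusted p in those fits was 0.067 for AARS, 0.096 for CARS and 0.096 for GARS.

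MYC, the growth regulator amplified or rearranged in many cancers, fell in both: 125, 96.8 and 125 FPKM became 58.001, 23.7 and 61.5 in XG1, and 75.04, 82.5 and 88.9 became 39.5, 34.0 and 28.8 in AMO1. Treated MYC libraries lay below DMSO libraries in both lines. The falls were −1.36 in XG1 and −1.25 in AMO1 on the log2 scale, and the line difference was −0.11, with an interval wide enough (−1.26 to 1.04) to hold a difference of either sign. Without XG1 100 nM replicate 2, the lowest MYC library of XG1, it was 0.32. On the relative scale the fall of MYC passed in XG1 (−1.16, adjusted p = 0.036 by limma) and did not pass in AMO1 (−0.82, 0.13).

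Of 44 MYC targets and ribosome biogenesis genes, 25 fell in XG1 and 35 in AMO1, against 10.8% and 25.4% of all genes, and 1 was called for the line difference, against 6.23% of all genes. This was POLR1E, a subunit of RNA polymerase I, with 1.48 (SE 0.28): 4.64, 6.77 and 7.55 against 7.90, 7.63 and 5.12 FPKM in XG1, and from 4.59, 6.45 and 5.52 to 1.55, 1.58 and 1.39 in AMO1. The list median was 0.31 on the deposited scale and 0.08 on the relative scale. On the relative scale 23 of the 44 fell in each line, against 1239 of all 12792 genes in XG1 and 1605 in AMO1. Of 77 cytosolic ribosomal protein genes, 44 fell in XG1 and 64 in AMO1, against the same shares, and 0 were called for the line difference by limma, with 1 at an unadjusted p under 0.05. Their line differences ran from −0.58 to 0.46 with a median of 0.11, and −0.13 on the relative scale. On the relative scale the order of the lines turned, with 47 of the 77 falling in XG1 and 31 in AMO1. RPS14, the member with the smallest adjusted p (0.23 by limma), showed 0.45 (95% interval 0.01 to 0.88). With the summed FPKM set equal in every library 12 of the 77 were called, against 1012 of all 12792 genes.

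Among 48 spliceosome genes, 16 fell in XG1 and 40 in AMO1, against 10.8% and 25.4% of all genes. For the line difference 4 were called, each higher in XG1, against 5.37% of all genes: SNRPB (1.03), SNRPA1 (1.24), PRPF31 (0.99) and SNRPD1 (0.89). SNRPB, a core protein of the small nuclear ribonucleoproteins, went from 389 ± 30.5 to 172 ± 14.8 FPKM in AMO1 and measured 437 ± 21.1 and 396 ± 22.9 in XG1. The SNRPD1 call was lost without XG1 100 nM replicate 2, AMO1 DMSO replicate 2 or AMO1 100 nM replicate 2 (highest adjusted p 0.065). SNRPD1 is outside the naming rule and was chosen after its values were seen. In glycolysis, 17 of 27 genes fell in AMO1 and 2 in XG1, against 25.4% and 10.8% of all genes. The median line difference of that list was 0.61, and 0.40 on the relative scale.

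Of the 27 glycolysis genes 4 were called, each higher in XG1, against 5.37% of all genes: TPI1 (1.03), PFKP (1.01), ENO1 (0.84) and PDK1 (1.11, named after its values were seen). TPI1, triose phosphate isomerase, was at 390.05, 356 and 393 FPKM in XG1 in DMSO and 539.7, 519 and 433 at 100 nM, and at 783, 831 and 783 and then 488, 492 and 556 in AMO1. The groups were apart in both lines, in opposite directions, but the rise in XG1 was not called. On the relative scale that rise passed (0.58, adjusted p = 8.4e-05 by limma) and the fall in AMO1 did not (−0.20, 0.056). TPI1 overlaps SPSB2. The PFKP call was lost without XG1 DMSO replicate 2, and the ENO1 call without that library, XG1 100 nM replicate 2, AMO1 DMSO replicate 2 or AMO1 100 nM replicate 1 or 2. The PDK1 call was lost without XG1 DMSO replicate 2 or 3, XG1 100 nM replicate 1 or 2, AMO1 DMSO replicate 1 or 2, or AMO1 100 nM replicate 1 or 2. Without XG1 DMSO replicate 2 the count of 4 was 1, and without AMO1 DMSO replicate 2, AMO1 100 nM replicate 1 or AMO1 100 nM replicate 2 it was 2. The counts at 0 in other lists of metabolism and secretion, all by limma, stand against 6.23% of all genes. They were 0 of 51 oxidative phosphorylation genes (3 at an unadjusted p under 0.05) and 0 of 19 plasma cell genes (2). The last was 0 of 33 endoplasmic reticulum chaperone and unfolded protein response genes (4).

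Death and damage genes were mixed. Of 29 p53 targets, 4 were called higher in XG1 and 1 lower, against 5.37% and 0.860% of all genes, with 5 and 4 on the relative scale, against 6.28% and 3.21%. PMAIP1, which encodes the BH3-only protein NOXA, went from 54.9, 59.6 and 67.6 to 50.3, 36.6 and 42.4 FPKM in XG1 and from 39.1, 49.95 and 42.5 to 9.88, 9.47 and 10.6 in AMO1, a line difference of 1.54 (SE 0.26, adjusted p = 0.0017 by limma). BBC3, which encodes the BH3-only protein PUMA, showed 0.99 (SE 0.21), falling from 275 ± 19.2 to 103 ± 5.84 FPKM in AMO1. DDB2, a sensor of damaged DNA, showed 1.54 (SE 0.34), falling from 51.2 ± 0.56 to 21.003 ± 4.70 FPKM in AMO1. These 3 genes promote death or repair and fell in AMO1 with no call in XG1.

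The other p53 targets called were GDF15 (0.86), a secreted stress factor that rose in XG1, and TNFRSF10D (−1.22), a decoy receptor that rose in AMO1 from 2.38 to 7.78 FPKM while XG1 stayed under 1 FPKM. Both were named after their values were seen. The GDF15 call held only without XG1 DMSO replicate 3 or XG1 100 nM replicate 3, with a highest adjusted p of 0.14 on leaving out any other library. Without XG1 100 nM replicate 3 the list count of 5 was 8. CDKN1A, the p53 target that inhibits cyclin-dependent kinases, was at 3.47, 1.51 and 2.40 against 2.81, 5.38 and 6.18 FPKM in XG1 and 161, 177 and 148 against 135, 121 and 150.5 in AMO1. Its groups overlapped in both lines, and the line difference of 0.98 (95% interval 0.19 to 1.77, adjusted p = 0.14 by limma) was not called. MCL1, the survival factor of myeloma cells, showed −0.34 (−0.85 to 0.18), also not called. It measured 154 ± 4.55 and 159.6 ± 20.8 FPKM in XG1 and 940.3 ± 40.04 and 1224 ± 66.9 in AMO1. On the relative scale its rise in AMO1 passed (0.82, adjusted p = 0.00022 by limma), and the line difference was not called (−0.58, 0.056).

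Of 28 immediate-early genes, 4 were called, each higher in XG1, against 5.37% of all genes: ATF3 (1.71), CYR61 (1.47), IER2 (1.07) and IER5 (0.89). ATF3, a stress-induced factor, fell in AMO1 from 6.03, 6.61 and 6.59 to 0.991, 1.00 and 1.28 FPKM and stood at 3.86, 4.21 and 5.85 against 5.89, 4.23 and 2.77 in XG1. IER2 fell in AMO1 from 367 ± 15.7 to 208 ± 3.51 FPKM and measured 264 ± 11.2 and 318 ± 58.1 in XG1. CYR61, named after its values were seen, rose in XG1 from 2.53 to 9.45 FPKM and was under 1 FPKM in AMO1. The IER5 call held only without XG1 DMSO replicate 3 or XG1 100 nM replicate 3 (highest adjusted p 0.12).

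Some histone genes rose, more of them in XG1. Of 18 tested, 6 rose in XG1 and 3 in AMO1, against 3.20% and 2.08% of all genes. In XG1 1 fell and in AMO1 3 fell, against 10.8% and 25.4% of all genes. The median response was −0.04 in XG1 and −0.68 in AMO1. For the line difference 4 were called, each higher in XG1, against 5.37%, with a median of 1.01. HIST1H1C, a linker histone gene, was at 409.99, 349.7 and 481 FPKM in XG1 in DMSO and 2014, 1709.9 and 1728 at 100 nM, and at 276, 268 and 279 and then 433, 424 and 396 in AMO1. It rose in both lines, by 2.14 in XG1 and 0.61 in AMO1, a line difference of 1.54 (SE 0.27, adjusted p = 0.0023 by limma). HIST1H2BK rose in both too, by 2.75 and 1.26, a line difference of 1.49 (SE 0.29). HIST1H2BG rose in XG1, from 22.2 ± 9.88 to 87.2 ± 2.45 FPKM, and measured 11.8 ± 2.63 and 10.6 ± 1.62 in AMO1, with a line difference of 2.17 (SE 0.40).

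HIST1H2BH, outside the histone list, had the largest line difference among protein-coding genes of at least 5 FPKM in each line, 4.81 (SE 0.78). Its spread was wide: 2.14, 0.139 and 0.174 FPKM became 12.6, 45.0 and 13.1 in XG1, and 10.4, 12.3 and 14.4 became 8.95, 2.90 and 4.68 in AMO1. Histone genes share near-identical sequence, HIST1H2BK also overlaps H4C9, and reads of such copies may have been split between them.

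Opposite movement with both lines called was found for 22 genes on the deposited scale, 20 of them up in XG1 and down in AMO1, where the median gene of AMO1 fell by 0.27. On the relative scale 70 genes went up in XG1 and down in AMO1, and 20 the other way. TUBB3, a neuronal beta-tubulin, was at 4.08, 5.45 and 5.65 FPKM in XG1 in DMSO and 25.8, 23.4 and 21.7 at 100 nM, and at 12.5, 13.0 and 12.7 and then 7.56, 5.93 and 9.74 in AMO1. No DMSO and treated libraries overlapped in either line. TUBB3 rose by 2.03 in XG1 and fell by 0.67 in AMO1, a line difference of 2.70 (SE 0.28, adjusted p = 2.9e-05 by limma). PJA1, a ubiquitin ligase, went from 5.50, 6.31 and 7.98 to 12.2, 12.4 and 11.4 FPKM in XG1 and from 17.7, 15.4 and 11.8 to 8.88, 9.98 and 8.76 in AMO1, so that the order of the lines turned between DMSO and 100 nM.

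Opposite movement was also called for RRP36 (1.22), a factor of ribosome assembly, for GIT1 (1.22), a scaffold of focal adhesions, and for NUP62CL (1.67), C21orf58 (1.68) and FAM161A (1.41). RRP36 went from 59.2 ± 1.59 to 94.5 ± 17.6 FPKM in XG1 and from 52.7 ± 5.30 to 35.2 ± 3.02 in AMO1. On the relative scale the line differences of these 5 genes and of TUBB3, CCND3 and PJA1 stayed called, but the fall in AMO1 passed the test for CCND3, NUP62CL and C21orf58 and missed it for TUBB3 (−0.27, adjusted p = 0.27 by limma), PJA1 (−0.22, 0.31), RRP36 (−0.14, 0.45), GIT1 (−0.28, 0.058) and FAM161A (−0.38, 0.17). GIT1 overlaps TP53I13 and C21orf58 overlaps YBEY, so their reads may not be told apart from those of their neighbours.

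**Figure D5:**
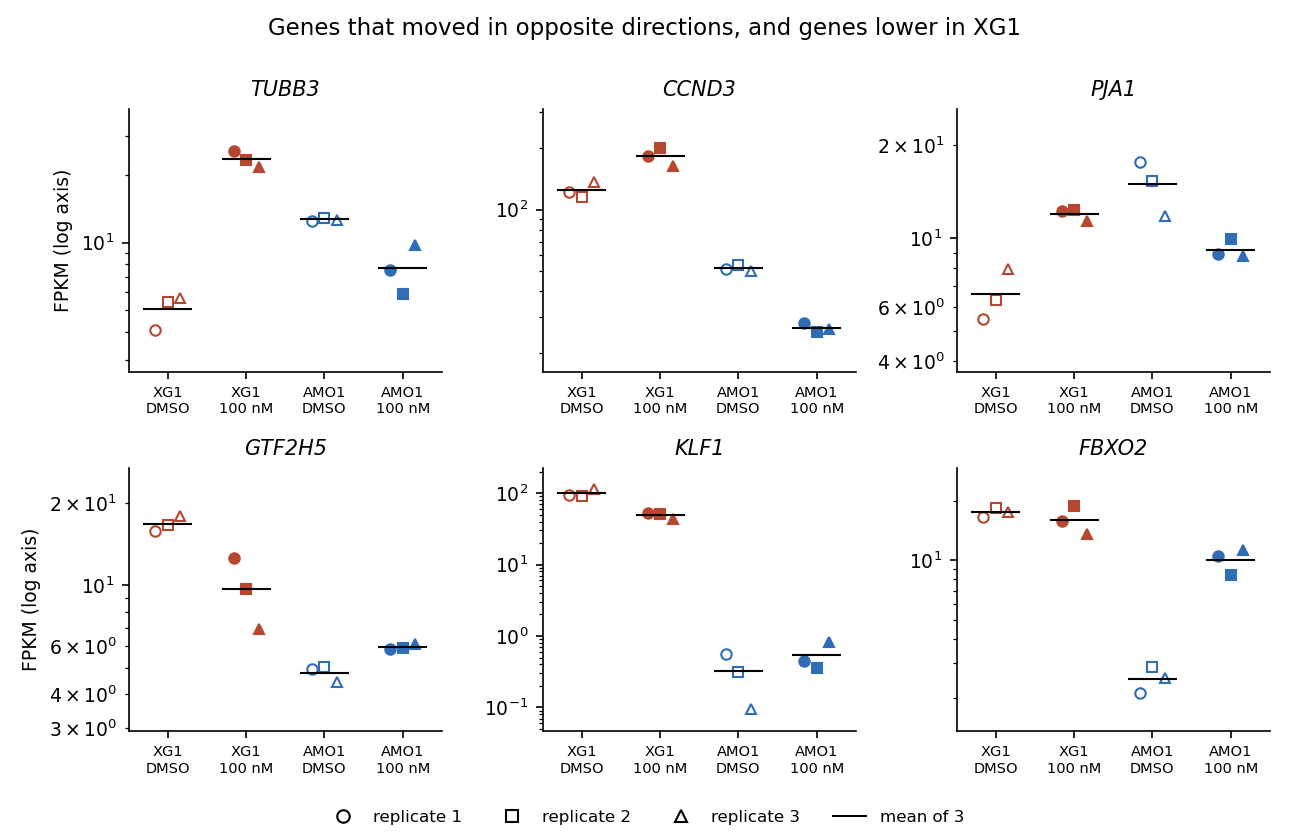
FPKM (log axis) of TUBB3, CCND3 and PJA1, which moved in opposite directions in the 2 lines on the deposited scale (the AMO1 fall of CCND3 alone of these passed on the relative scale), and of GTF2H5, KLF1 and FBXO2, which had negative line differences; open symbols are DMSO, filled symbols 100 nM, shape is the replicate and bars are means of 3. KLF1 lies under 1 FPKM in every AMO1 library, and FBXO2 rose in AMO1 from under 3 to over 8 FPKM with XG1 in 1 range.

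Among genes lower in XG1, some rose in AMO1 and others fell in XG1. FBXO2, a ubiquitin ligase subunit that binds glycoproteins, was at 16.6, 18.6 and 17.6 FPKM in XG1 in DMSO and 15.8, 18.9 and 13.7 at 100 nM, and went from 2.12, 2.86 and 2.52 to 10.5, 8.38 and 11.3 in AMO1. The XG1 groups overlapped and the AMO1 groups did not, and the line difference was −1.79 (SE 0.28, adjusted p = 0.00096 by limma). FBXO2 overlaps FBXO44. WNT5B, a Wnt ligand, rose in AMO1 from 11.46 ± 1.66 to 20.5 ± 2.46 FPKM and stood at 8.13 ± 2.21 and 4.72 ± 1.78 in XG1, a line difference of −1.49 (SE 0.36). The WNT5B call was lost without XG1 DMSO replicate 2 or AMO1 100 nM replicate 1 (highest adjusted p 0.059).

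SCO2, a copper chaperone of the respiratory chain, had a line difference of −3.36 (SE 0.68). This was the most negative among protein-coding genes averaging at least 5 FPKM over the DMSO and 100 nM libraries of each line. SCO2 was at 19.0, 56.7 and 28.4 against 43.6, 74.2 and 22.9 FPKM in XG1. In AMO1 it was at 0.221, 2.12 and 0.111 against 17.9, 30.9 and 17.0. It reached that mean in AMO1 only through the treated libraries, as its DMSO mean was 0.817 FPKM. SCO2 overlaps NCAPH2 and TYMP. PIGF, an enzyme of GPI anchor synthesis that overlaps RHOQ, fell in XG1 from 20.8, 12.5 and 17.4 to 11.497, 2.50 and 1.34 FPKM, a line difference of −2.44 (SE 0.61). The PIGF call was lost without XG1 DMSO replicate 1, XG1 100 nM replicate 2, AMO1 DMSO replicate 2 or 3, or AMO1 100 nM replicate 2 (highest adjusted p 0.069).

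RABGGTB, a subunit of the Rab prenyltransferase, fell in both lines and further in XG1: from 30.8, 34.4 and 53.8 to 7.03, 2.90 and 2.68 FPKM in XG1 and from 18.5, 19.7 and 15.2 to 8.67, 5.93 and 5.86 in AMO1, a line difference of −1.75 (SE 0.49). The lymphocyte surface protein CD48 fell in XG1, from 42.7 ± 7.59 to 10.7 ± 3.45 FPKM, with 203 ± 27.8 and 130.03 ± 10.6 in AMO1, a line difference of −1.31 (SE 0.36). SERTAD3 showed −1.25 (SE 0.36), with 9.59 ± 0.66 and 5.05 ± 1.18 FPKM in XG1 and 4.78 ± 0.49 and 6.95 ± 2.18 in AMO1. These 3 calls were close to the threshold. The RABGGTB call held only without XG1 100 nM replicate 1, the CD48 call only without XG1 DMSO replicate 2 or XG1 100 nM replicate 3, and the SERTAD3 call only without AMO1 100 nM replicate 3. Highest adjusted p on leaving out any other library was 0.11 for RABGGTB, 0.10 for CD48 and 0.13 for SERTAD3.

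Few erythroid genes reached 1 FPKM in AMO1. Of 26 tested, 7 fell in XG1 and 3 in AMO1, against 10.8% and 25.4% of all genes. For the line difference 1 was higher and 3 were lower in XG1, against 5.37% and 0.860% of all genes. KLF1, the factor that turns on globin genes, was at 94.5, 91.6 and 113 FPKM in XG1 in DMSO and 52.9, 50.2 and 44.0 at 100 nM, and under 1 FPKM in every AMO1 library. The XG1 groups did not overlap, and the line difference of −1.23 (SE 0.24) was made of −1.01 in XG1 and 0.22 in AMO1. LMO2, a partner of the erythroid factor GATA1, showed −1.04, from 44.7 ± 4.13 to 21.6 ± 5.37 FPKM in XG1. KLF1 and LMO2 were named after their values were seen, and both calls were lost with 0.1 as the added constant, with adjusted p of 0.082 and 0.13.

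The globin gene HBD fell in XG1 from 173, 161 and 194 to 52.9, 75.3 and 44.9 FPKM and stood at 4.28, 9.91 and 1.63 against 5.59, 8.59 and 9.97 in AMO1. Its line difference was −2.35 (SE 0.54), and its reads may be mixed with those of near-identical globin genes. GYPC, a surface protein of red cells found in other cells too, was the 1 higher gene (0.94): it fell in AMO1 from 331 ± 31.4 to 176 ± 4.95 FPKM and measured 164 ± 12.6 and 168 ± 26.2 in XG1. The GYPC call held only without XG1 100 nM replicate 3 (highest adjusted p 0.099). The summed level of the 29 erythroid genes went from 5641 to 6159.6 FPKM in XG1 in DMSO to 3580.1 to 4676 at 100 nM. In AMO1 it went from 426 to 498 to 236 to 260, where 5 of the 29 reached 1 FPKM. GYPC (331 to 176 FPKM) and HBE1 (106 to 63.5, means of 3) made up most of that AMO1 sum. The summed level of 10 stromal genes went from 438 to 474 to 131 to 237 in XG1 and from 390.2 to 436 to 189 to 218 in AMO1. In DMSO 2 of the 10 reached a mean of 1 FPKM in each line. The sum of 14 myeloid genes went from 135 to 153 to 81.1 to 107 in XG1 and was under 5 FPKM in AMO1. None of these falls left DMSO and treated libraries overlapping. Other sums rose in AMO1, also without overlap. Those were 20 plasma cell genes, from 11649 to 12974 to 13004 to 13708 FPKM, and 11 B cell genes, from 113 to 124 to 148 to 189. Most plasma cell genes did not share that rise. Of 19 tested, 0 rose and 3 fell in AMO1, against 2.08% and 25.4% of all genes, with a median response of −0.39. SDC1, named after its values were seen, went from 5067 to 7801 FPKM in AMO1 (means of 3). Of 4 tested B cell genes, 1 rose and 0 fell in AMO1. In XG1 the plasma cell and B cell sums overlapped between DMSO and 100 nM. The part of these shifts in the other line differences was not tested.

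The gene ABCB1, which encodes a drug efflux pump, was near the lowest values of the files in XG1, at 0.236, 0.139 and 0.274 FPKM in DMSO and 0.634, 0.177 and 0.351 at 100 nM, and at 2.85 ± 0.16 and 2.50 ± 0.16 in AMO1. Its line difference of 0.31 (95% interval −0.12 to 0.75) was not called. IRF4, under 1 FPKM in XG1 in DMSO on average, fell in AMO1 from 71.9, 84.0 and 76.7 to 46.3, 41.8 and 46.5 FPKM, with a line difference of 0.63 (0.08 to 1.17, adjusted p = 0.18 by limma). At 1000 nM, against the same DMSO libraries, RRM2 stood at 25.4 FPKM in XG1 and 5.83 in AMO1, CTH at 17.5 and 1.56, and TUBB3 at 13.1 and 5.10 (means of 3).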

How the data were processed

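The values were made by the authors. The submitters' processing notes name HISAT2, Cuffnorm and the build hg19, with no versions given in the sources used here. Per the labels' protocols, libraries were QuantSeq 3' libraries from total RNA. The deposited values were FPKM for 26341 entries a library: 26249 genes and 92 ERCC spike-ins, which were left out of the tests. Summed spike-ins were nearly level between libraries, so the FPKM appear rescaled to them, a step inferred from the values. The files held no zeros and each library had a floor of 0.0711 to 0.158 FPKM. Read depth and the strand setting are not given in the sources used here.

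All 18 libraries (6 groups of 3) were fitted together on log2(FPKM + 1), keeping genes that reached 1 FPKM in 3 or more libraries, with limma 3.58.1 in R 4.3.3 (mean-dependent prior variance, 12 residual degrees of freedom before moderation, two-sided). The line difference was the interaction contrast. Benjamini-Hochberg adjusted p under 0.05 over all tested genes was the threshold, and intervals are 95%. The relative scale divides by median-ratio size factors. The fit was tested on simulated data with known line differences. It called 1.49% of those of log2 0.5, 25.4% of those of 1 and 81.8% of those of 2, with 4 false calls. A gene that was not called is therefore not shown to respond alike in the 2 lines. Figures were drawn with matplotlib 3.10.9.

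Genes named were 11 fixed ones, up to 3 per list with the smallest adjusted p among those of at least 1 FPKM in each line, the 8 largest differences each way of at least 5 FPKM in each line, and up to 8 called in opposite directions; some were named outside this rule, as said beside them, and some results it selects are not reported here. The 36 gene lists and the comparison itself were chosen with earlier results of these data known. Alternatives were other scalings, added constants, filters, fits and libraries left out. Gene overlaps were looked up by symbol in RefSeq (GRCh38.p14).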

Additional observations from a re-analysis of the deposited data

Results flagged for a closer look

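The test of the difference between the 2 lines' responses to 100 nM passed for 797 genes, and every gene named in the report that passed it is listed here with its line difference in brackets (log2, XG1 minus AMO1). It is this test that placed each gene here, and no explanation was tested for any of them. Replication, division and repair genes were RRM2 (2.18), CDT1 (2.11), CDC6 (2.03), TPX2 (2.36), NUSAP1 (2.01), CKS1B (2.28), SKA1 (2.77), HJURP (2.48), ASF1B (2.58), CDK2 (1.90), E2F1 (1.53) and RAD51C (1.67). Stress response, amino acid and tRNA charging genes were CTH (3.17), CHAC1 (2.95), INHBE (2.38), SLC7A11 (1.13), SLC1A5 (2.44), AARS (1.02), CARS (0.89), GARS (1.05) and ATF3 (1.71). Genes of transcription, splicing and RNA polymerase I were POLR2G (0.79), POLR2I (0.85), GTF2H5 (-1.02), POLR1E (1.48), SNRPB (1.03), SNRPA1 (1.24), PRPF31 (0.99) and SNRPD1 (0.89). Genes of death, damage, early response and metabolism were PMAIP1 (1.54), BBC3 (0.99), DDB2 (1.54), GDF15 (0.86), TNFRSF10D (-1.22), IER2 (1.07), IER5 (0.89), CYR61 (1.47), TPI1 (1.03), PFKP (1.01), ENO1 (0.84) and PDK1 (1.11). Histone genes were HIST1H2BH (4.81), HIST1H2BG (2.17), HIST1H1C (1.54) and HIST1H2BK (1.49). Genes that moved in opposite directions in the lines on the deposited scale were TUBB3 (2.70), CCND3 (1.49), PJA1 (1.42), RRP36 (1.22), GIT1 (1.22), NUP62CL (1.67), C21orf58 (1.68) and FAM161A (1.41). Lower in XG1 were SCO2 (-3.36), PIGF (-2.44), FBXO2 (-1.79), RABGGTB (-1.75), WNT5B (-1.49), CD48 (-1.31) and SERTAD3 (-1.25), and among erythroid genes HBD (-2.35), KLF1 (-1.23) and LMO2 (-1.04), with GYPC (0.94) higher.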

How the results depend on the processing

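The count of genes called moved with the processing. On the deposited scale (797 genes) it was 1919 with array quality weights and ran from 433 to 1137 when 1 library was left out. It fell by more than 1.5 times without XG1 DMSO replicate 2 (473), AMO1 DMSO replicate 2 (433), AMO1 100 nM replicate 1 (482) or AMO1 100 nM replicate 2 (470), and without XG1 100 nM replicate 3, which stood apart, it was 1137. Among genes of at least 1 FPKM in both lines (633) it was 401 with no filter on low values, 1028 with the 12 libraries alone, 1609 with array quality weights and 338 to 922 when 1 library was left out. On the relative scale (1213) it was 418 with no filter. The share of higher against lower calls also moved: the calls were 482 and 530 with the summed FPKM set equal, 521 and 40 with 0.1 as the added constant, and 825 and 169 with 5. The line difference of summed FPKM was 0.28 without the 50 most abundant genes and 0.33 to 0.44 when 1 library was left out, against 0.38. Counts of 37 replication, 43 mitosis and 25 stress response genes ran from 28 to 41, 35 to 49 and 18 to 26 when 1 library was left out. Of 64 named genes called, 46 kept the call in each of the 12 fits that left out 1 library (highest adjusted p 0.047), and 18 lost it in at least 1 (highest 0.14). Values that turned sign were of genes not called: CCND1 (−0.038) and ABCB1 (−0.13) with the summed FPKM set equal, CDK7 (0.11) and MNAT1 (0.065) with array quality weights, and CCNH (0.14) and MYC (0.32) without XG1 100 nM replicate 2; CCNH ran from −0.39 and MYC from −0.35 to those values when 1 library was left out. The cause of these shifts was not tested. Read depth is unknown, and the median SE of a line difference was 0.29 for protein-coding genes, which limits what 3 replicates can show.

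The labels give the same replicate numbers to every group and do not say whether same-numbered samples were paired. Deviations of same-numbered DMSO and 100 nM libraries correlated at 0.05 to 0.15 in XG1 and at −0.12 in AMO1, for each of 3 numbers. Such weak correlations cannot decide whether the samples were set up together. With the number as a block over all libraries 641 genes were called, and with the number as a block within each line 513 (411 among genes of at least 1 FPKM in both lines).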
